A study of Drosophila melanogaster with 6 samples.

Results

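T4 and T5 neurons were picked out of single-cell RNA sequencing of fly brains by the transcripts that define them. A barcode was counted as T4/T5 when it held at least 200 genes, at most 10% of its unique molecular identifiers (UMIs, each a counted RNA molecule) in mitochondrial transcripts, and a UMI of at least 3 of the 6 genes *acj6*, *SoxN*, *Sox102F*, *Drgx*, *CNMaR* and *Lim1*, with *Drgx* or *CNMaR* among them. The barcodes were thus selected on their measured UMIs of these genes. This rule found 1682 T4/T5 barcodes among the 25189 that passed the gene and mitochondrial limits, or 6.68%. The flies were 10 days old and of 2 genotypes. Controls were *w1118* and the others carried *Appl[d]*, a synthetic deletion of *Appl*, the fly ortholog of the amyloid precursor protein. Each genotype had 3 libraries, each from the pooled brains of 20 male and 20 female flies dissociated with trypsin. The control libraries gave 422, 236 and 282 T4/T5 barcodes, 940 in all, and the Appl-deleted libraries 237, 364 and 141, 742 in all. The sources do not give a shared strain background for the stocks, so the deletion and any other difference between the stocks cannot be told apart. The deletion leaves the first and last exons of *Appl*, so UMIs can still be counted at its 3′ end. Because brains were pooled, p-values measure the spread between libraries and not between flies.

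T4 and T5 are small columnar neurons of the optic lobe and the first cells of the fly visual pathway that respond to the direction of motion. T4 dendrites lie in the medulla and read moving bright edges, and T5 dendrites lie in the lobula and read moving dark edges. Both kinds are cholinergic, fall into subtypes tuned to the cardinal directions and send axons to separate layers of the lobula plate. Among the rule genes, *acj6* encodes a POU domain factor, *SoxN* and *Sox102F* encode Sox factors, *Drgx* and *Lim1* encode homeodomain factors and *CNMaR* encodes the receptor of the neuropeptide CNMamide.

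The libraries held 11282730 to 56384733 UMIs and the T4/T5 sums 352151 to 1724940 UMIs. Control replicate 1 stood apart as the deepest library, and its T4/T5 barcodes had the highest median mitochondrial share, 7.54% against 4.50% to 6.10% in the other libraries. In total 439 barcode sequences occurred in more than 1 library, and they made up 0.948% to 4.26% of the T4/T5 barcodes of a library. The reference for levels was the 21652 other neurons, which were kept barcodes outside the rule with a UMI of at least 2 of the 4 pan-neuronal genes *elav*, *nSyb*, *brp* and *Syt1* and none of the glial gene *repo*. A UMI of *roX1* or *roX2*, RNAs of male dosage compensation, marked 63.5% to 68.2% of control T4/T5 barcodes. In Appl-deleted libraries it marked 69.5% to 82.3% (exact two-sided permutation p = 0.1). In other neurons the libraries overlapped, with means of 64.4% and 71.4% (exact permutation p = 0.3). The mix of male and female cells was not tested further.

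The GABA and glutamate genes were rarest, and the acetylcholine transporter most frequent, in the barcodes with most of the rule genes. Of the T4/T5 barcodes, 510 (30.3%) held exactly 3 of the 6 genes, 323 (19.2%) held 4, 483 (28.7%) held 5 and 366 (21.8%) held all 6. *VAChT*, the vesicular acetylcholine transporter, had a UMI in 75.5% of the barcodes with 3 rule genes and in 91.3% of those with 6. *ChAT*, the acetylcholine-synthesizing enzyme, did not follow *VAChT*, with a UMI in 53.7% of those with 3 and in 40.4% and 48.1% of those with 5 and 6. *Gad1*, the GABA-synthesizing enzyme, had a UMI in 22.0% of those with 3 and in 9.73% and 12.3% of those with 5 and 6. Control replicate 1 differed, with *Gad1* in 28.2% of its barcodes with 3 and in 30.9% and 22.8% of those with 5 and 6. In the other libraries the share with 5 or 6 was 2.13% to 16.7%. *VGlut*, the vesicular glutamate transporter, had a UMI in 19.0% of those with 3, and in 8.28% and 7.38% of those with 5 and 6. Barcodes with 3 rule genes thus carried GABA and glutamate transcripts in shares near those of other neurons, 21.0% for *Gad1* and 26.9% for *VGlut*. The 930 barcodes just outside the rule, with 2 of the genes, were close to those just inside, with *Gad1* in 23.2% and *VGlut* in 19.4%. On these genes the barcodes with 3 rule genes did not stand apart from those just outside the rule. The main results below are therefore also given for the 849 barcodes (50.5%) with at least 5 of the 6 genes, a limit chosen after these values were seen.

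**Figure D1:**
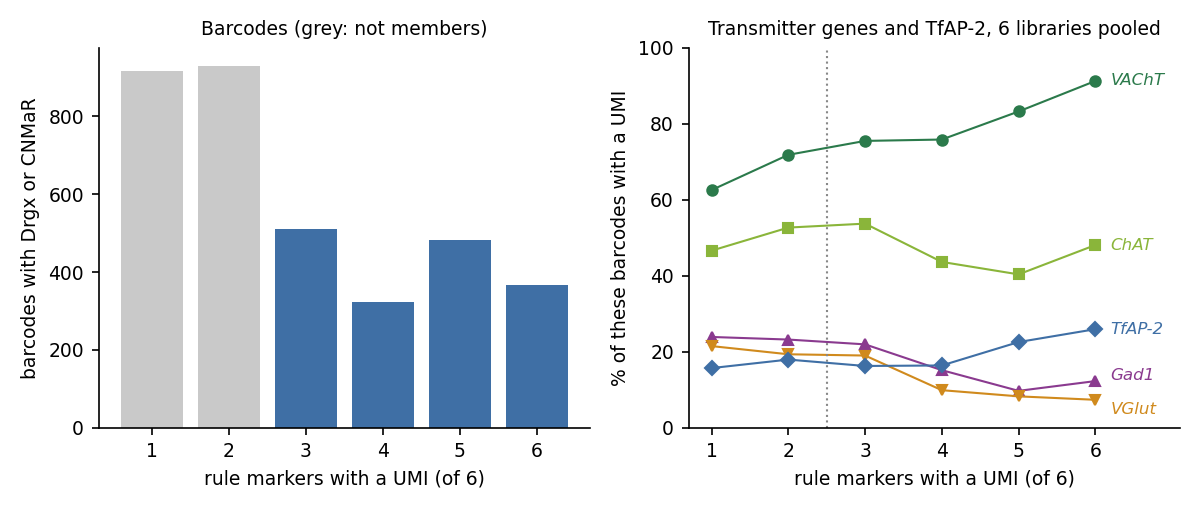
The left panel plots the number of barcodes with *Drgx* or *CNMaR* (y axis) against how many of the 6 rule genes they hold (x axis), grey where the rule was not met. The right panel plots the percent of these barcodes with a UMI of 5 genes, all libraries pooled, with a dotted line at the rule's limit. *Gad1* and *VGlut* fall from 22.0% and 19.0% at 3 genes to 12.3% and 7.38% at 6, while *VAChT* rises from 75.5% to 91.3%.

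The share of barcodes with at least 5 rule genes also differed between the libraries. It was 46.9%, 55.9% and 65.6% in the control libraries and 41.8%, 46.2% and 47.5% in the Appl-deleted libraries, with means of 56.2% ± 9.34 and 45.1% ± 3.00 (SD, n = 3 libraries). The lowest control library lay within the Appl-deleted range. *CNMaR* is 1 of the 6 genes counted here. Of the barcodes with at least 5 rule genes, 95.5%, 93.9% and 94.1% held a *CNMaR* UMI in the control libraries. In the Appl-deleted libraries 69.7%, 70.8% and 67.2% did. The choice of this stricter set was therefore not independent of genotype. Counts and named genes are given below for this stricter set as well.

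The rule genes themselves were far above other neurons, as the choice required, and these values are a description. *Drgx* had a UMI in 62.1% of T4/T5 barcodes on average over the libraries and in 1.44% of other neurons. *CNMaR* had one in 74.4% against 2.64%, and *SoxN* in 91.2% against 40.3%. *SoxN* was thus the least specific of these by its share in other neurons. Levels were counts per 1000000 UMIs (CPM) of the summed barcodes of a class in a library, scaled by TMM normalization over the T4/T5 and other-neuron sums. On this scale *Drgx* averaged 348 CPM in T4/T5 and 8.80 CPM in other neurons, and its fold between the classes was 31.3 to 52.9 over the libraries.

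Genes that the rule did not use also marked the T4/T5 sums, again as a description with no test, since the rule chose the cells. Of 2610 genes at 50 CPM or more in T4/T5, 23 (0.881%) were at least 2-fold above other neurons in all 6 libraries, and 17 of these were not rule genes. *CG14340*, an uncharacterized gene, averaged 204 ± 75.8 CPM in T4/T5 (SD, n = 6 libraries) and 9.29 CPM in other neurons, 13.9- to 37.2-fold higher. *CG9628*, also uncharacterized, averaged 60.9 CPM against 5.60 CPM. Their median folds over the libraries, 18.5 and 11.1, were below those of *Drgx* (40.9) and *CNMaR* (38.2).

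The characterized genes of this group included transcription factors, surface proteins and a secreted ligand. *zld*, a zinc finger factor known in the embryo for opening chromatin, had 409, 743 and 702 CPM in the control T4/T5 sums and 427, 553 and 475 CPM in the Appl-deleted sums, against a mean of 116 CPM in other neurons. *fkh*, a forkhead factor, had 284, 455 and 380 CPM in control and 358, 306 and 555 CPM in Appl-deleted T4/T5 sums, against a mean of 86.0 CPM. Neither factor separated the genotypes. *robo2*, a receptor of the axon guidance cue Slit, averaged 180 ± 44.0 CPM against 46.6 CPM, a fold of 2.45 to 5.31 over the libraries. *Fas3*, a homophilic adhesion protein, had 360, 442 and 548 CPM in control and 333, 459 and 615 CPM in Appl-deleted T4/T5 sums, against a mean of 138 CPM. *mav*, a ligand of the TGFβ family, averaged 93.8 ± 35.1 CPM against 28.2 CPM. *SiaT*, the fly sialyltransferase, averaged 261 CPM against 96.5 CPM. Each of these was higher in T4/T5 in 6 of 6 libraries by construction of the group.

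**Figure D2:**
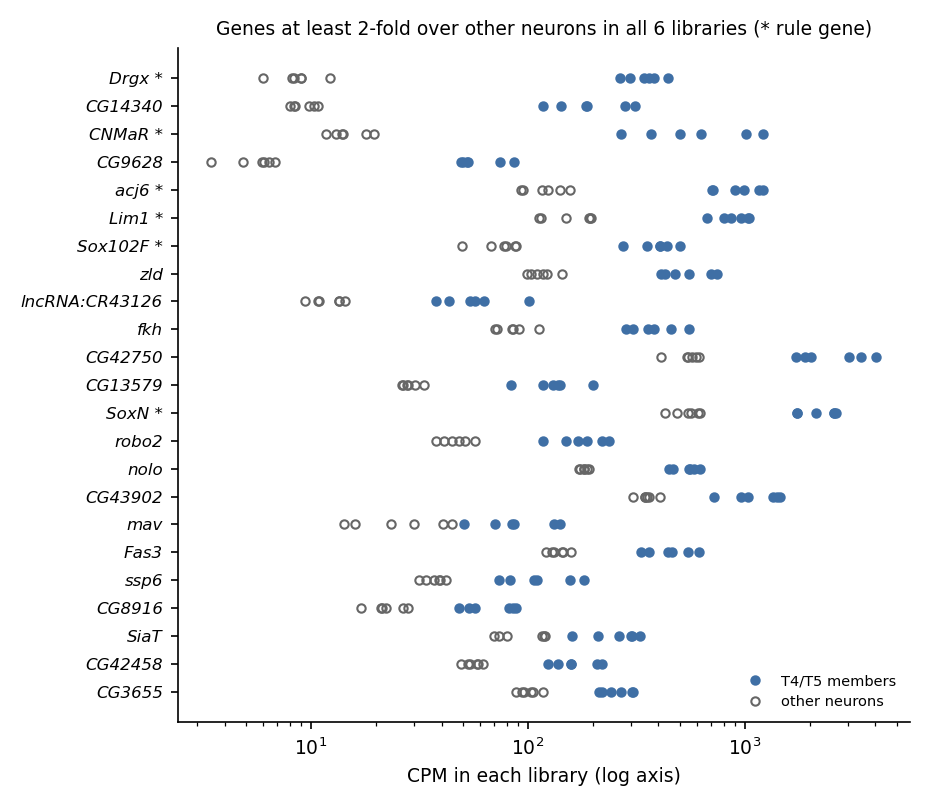
Level in CPM (logarithmic x axis) of the 23 genes at least 2-fold above other neurons in all 6 libraries. Filled points are T4/T5 sums and open points other-neuron sums, 1 point per library, and an asterisk marks a rule gene. Genes are ordered by their smallest fold over the libraries, led by *Drgx* (31.3- to 52.9-fold), *CG14340* (13.9 to 37.2) and *CNMaR* (13.7 to 93.2).

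Among genes at 50 CPM or more in other neurons, 10 were at most 0.5-fold of them in every library, several of them markers of other neuron types. *Pdf*, the clock neuron peptide, averaged 1.18 CPM in T4/T5 and 285 CPM in other neurons. *AstA*, the allatostatin A peptide, averaged 2.72 CPM against 183 CPM. *Vsx1*, a homeodomain factor of other optic lobe neurons, averaged 10.7 CPM against 51.8 CPM. *ey*, a Pax6 factor of Kenyon cells among others, averaged 14.5 CPM against 74.3 CPM. Other genes of monoamine neurons were not low over all T4/T5 barcodes. *Vmat*, the vesicular monoamine transporter gene, was at 531 ± 382 plain CPM in control and 353 ± 328 plain CPM in Appl-deleted T4/T5 (SD, n = 3), against 179 and 167 plain CPM in other neurons. *ple*, the tyrosine hydroxylase gene, was at 76.5 ± 89.1 and 151 ± 173 plain CPM against 30.5 and 41.2 plain CPM. In the set with at least 5 rule genes *Vmat* was at 113 ± 147 and 7.70 ± 9.28 plain CPM and *ple* at 24.5 ± 36.8 and 6.50 ± 7.31 plain CPM, so both came mostly from barcodes with 3 or 4 rule genes.

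The acetylcholine genes were read in every library. *VAChT* averaged 802 ± 96.4 CPM in T4/T5 and 637 CPM in other neurons, and had a UMI in 80.4% of T4/T5 barcodes against 56.8% of other neurons. *ChAT* was at 280 CPM against 299 CPM, and the acetylcholinesterase gene *Ace* at 1038 CPM against 790 CPM. *Gad1* was at 298 CPM against 526 CPM and *VGlut* at 186 CPM against 458 CPM over all T4/T5 barcodes. In the barcodes with at least 5 rule genes, *Gad1* was at 120 ± 172 CPM in the control libraries and 44.7 ± 27.9 CPM in the Appl-deleted libraries (plain CPM, SD, n = 3), against 552 and 487 CPM in other neurons. *VGlut* there was at 72.9 ± 27.0 and 127 ± 114 plain CPM, against 394 and 510 in other neurons, and *VAChT* at 973 and 996 plain CPM against 612 and 646. *ChAT* was not above other neurons in the stricter set, at 247 and 275 plain CPM against 306 and 285.

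Receptors for the known inputs of T4 and T5 were read at high levels but mostly not above other neurons. Among acetylcholine receptor subunits, *nAChRalpha5* averaged 1779 CPM in T4/T5 against 1568 CPM in other neurons, *nAChRalpha6* averaged 1556 CPM against 2141 CPM and *nAChRbeta1* averaged 1290 CPM against 1460 CPM. *nAChRalpha6* also had a UMI in a lower share of barcodes, 44.9% of T4/T5 against 78.5% of other neurons. The GABA-A receptor subunit gene *Rdl* averaged 2616 CPM against 2806 CPM, and the glutamate-gated chloride channel gene *GluClalpha* 1117 CPM against 1021 CPM. The dopamine receptor gene *Dop2R* was lower, at 1905 CPM against 2961 CPM, with a UMI in 39.4% of T4/T5 barcodes against 70.0%. The octopamine receptor gene *Octbeta2R* averaged 711 CPM against 510 CPM and *Octbeta1R*, another octopamine receptor gene, 99.7 CPM against 310 CPM. Among recognition and adhesion genes, *dpr1* averaged 674 CPM against 323 CPM, the neuroligin gene *Nlg2* averaged 709 CPM against 346 CPM and the teneurin gene *Ten-a* averaged 2870 CPM against 1666 CPM.

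The first question between the genotypes was whether T4/T5 barcodes made up the same share of cells. Of the kept barcodes they were 9.50%, 6.98% and 6.88% in the control libraries and 6.49%, 5.63% and 4.47% in the Appl-deleted libraries. All 3 control libraries lay above all 3 Appl-deleted libraries. The means were 7.79% ± 1.48 and 5.53% ± 1.01 (SD, n = 3), and the exact two-sided permutation test over libraries gave p = 0.1, the smallest value that 3 against 3 libraries allow. Exact binomial 95% intervals on a library's share were 1.14 to 1.75 percentage points wide and cover counting error only. The gap fell from -2.25 to -1.40 percentage points without control replicate 1. It was not separate with a 5% mitochondrial limit (exact permutation p = 0.4) or with at least 2 rule genes (exact permutation p = 0.3). At least 5 rule genes gave shares of 4.46%, 3.90% and 4.52% in control and 2.71%, 2.60% and 2.12% in Appl-deleted libraries, and with *CNMaR* left out of the rule they were 5.54%, 4.17% and 3.88% against 3.59%, 3.61% and 2.85%, each with exact permutation p = 0.1. Fewer T4/T5 cells, a different yield on dissociation and fewer rule-gene UMIs per cell cannot be told apart.

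**Figure D3:**
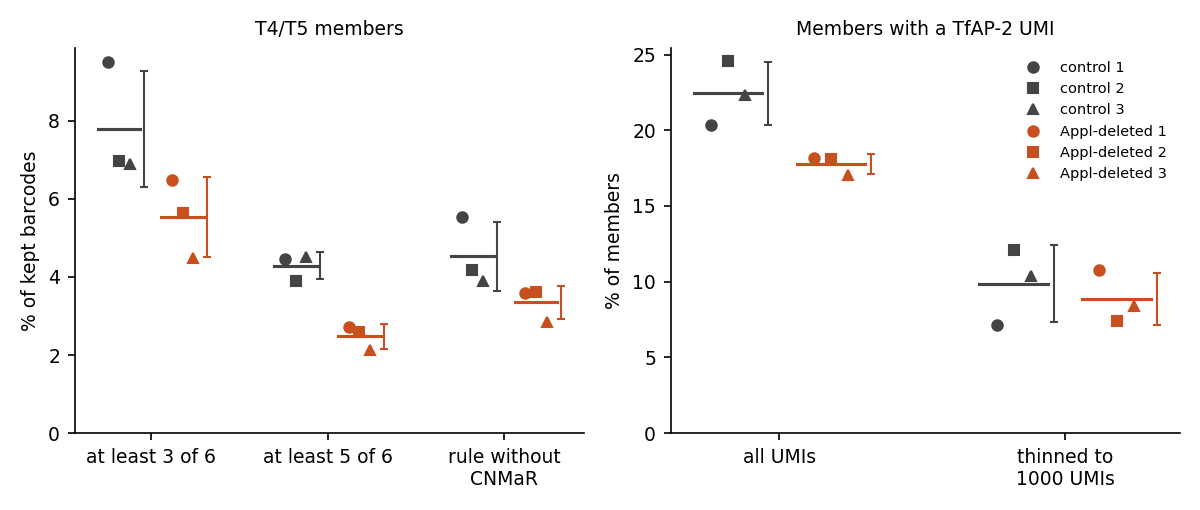
The left panel plots T4/T5 barcodes as a percent of kept barcodes under 3 rules. The right panel plots the percent of T4/T5 barcodes with a *TfAP-2* UMI, with all UMIs and thinned to 1000 UMIs a barcode. Points are libraries (grey control, orange Appl-deleted, shape for replicate), the line is the mean and the bar the SD. The genotypes do not overlap under the 3 rules on the left, while on the right they separate with all UMIs (22.4% against 17.8%) and overlap after thinning (9.87% against 8.86%).

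*TfAP-2* encodes a transcription factor known to mark T4 and not T5, and so allowed the balance of the pair to be read. It had a UMI in 20.4%, 24.6% and 22.3% of T4/T5 barcodes in the control libraries and in 18.1%, 18.1% and 17.0% in the Appl-deleted libraries. The means, 22.4% ± 2.10 and 17.8% ± 0.645 (SD, n = 3), did not overlap in their libraries (exact two-sided permutation p = 0.1). With every barcode thinned to 1000 UMIs and shallower ones left out, the shares were 7.13%, 12.1% and 10.4% in control and 10.8%, 7.41% and 8.40% in Appl-deleted libraries (exact permutation p = 0.7). At equal depth the genotypes overlapped, on 30, 28 and 28 control and 25, 26 and 11 Appl-deleted barcodes with a UMI. Unthinned shares did not overlap with at least 5 rule genes, 25.3% to 27.0% in control against 19.4% to 23.2%. With *CNMaR* left out of the rule they were 22.4% to 26.2% against 18.9% to 22.1% (exact permutation p = 0.1 for each). They overlapped with at least 2 rule genes (exact permutation p = 0.2) and with no mitochondrial limit (exact permutation p = 0.4). In other neurons the unthinned share was 7.52% ± 0.219 and 7.16% ± 0.740. The median depth of T4/T5 barcodes was 2824 ± 673 UMIs in control and 2381 ± 501 UMIs in Appl-deleted libraries (SD, n = 3, exact permutation p = 0.5), and the medians of other neurons lay between 2366 and 3152 UMIs.

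Against this background of cell numbers, the summed counts of T4/T5 barcodes were compared between the genotypes gene by gene. Of 5528 genes tested with edgeR's quasi-likelihood test, 42 (0.76%) were higher and 37 (0.669%) lower in Appl-deleted T4/T5. A call needed an adjusted p (Benjamini-Hochberg, over all genes tested) below 0.05 and a level that differed by 25% or more of the lower one. The 79 called genes were 1.43% of those tested. Their libraries did not overlap between the genotypes in any case, while 16.8% of all genes tested were without overlap, and 11.2% had an unadjusted p under 0.05. In other neurons of the same libraries, where 4.43% of tested genes were called, 66 of the 79 were called in the same direction. Blocking on the replicate number gave 121 higher and 100 lower genes, 4% of those tested, and these included all 79. The count moved by over 1.5 times with several single libraries. Without control replicate 1, 72 were higher and 53 lower. Without control replicates 2 and 3 the counts were 24 and 33, and 19 and 30. Without Appl-deleted replicates 1, 2 and 3 they were 22 and 22, 15 and 18, and 31 and 25. Requiring at least 5 rule genes, 77 of 3946 genes were called, 1.95% of those tested, and 47 of the 79 were among them, 21 higher and 26 lower. Of the rest, 18 could not be tested there and 14 were tested and not called. By chromosome arm of the BDGP6.54 annotation, 1.93% of tested genes were called on X, where *Appl* lies, 1.15% on 2L, 1.85% on 2R, 1.21% on 3L, 0.989% on 3R and 2.56% on the small chromosome 4.

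The targeted gene checked the labels in T4/T5. *Appl* (FBgn0000108, chromosome X) was at 2265, 2668 and 2206 CPM in the control T4/T5 sums and at 225, 302 and 258 CPM in the Appl-deleted sums, on the scale of the T4/T5 fit alone, which holds for all genotype values below. Every Appl-deleted library was far below every control library. The log2 change was -3.18 (SE 0.164, edgeR adjusted p = 1.23e-06), and the same libraries gave -3.27 in other neurons. The UMIs that remained cannot be assigned to an intact transcript.

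The 5 other transcription factor genes of the rule barely moved between the genotypes. *acj6*, *SoxN*, *Sox102F*, *Drgx* and *Lim1* had log2 changes between -0.13 and 0.00, with edgeR adjusted p from 0.89 to 1.0. Since these genes chose the barcodes, their values are a description.

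*CNMaR* did not follow them. *CNMaR* (FBgn0053696, chromosome 3L) was at 648, 1040 and 1252 CPM in control T4/T5 sums and at 270, 379 and 516 CPM in Appl-deleted sums. All control libraries lay above all Appl-deleted libraries. The log2 change was -1.35 (SE 0.265). It is 1 of the 37 genes counted as lower above, but its UMIs helped to choose these barcodes and to keep others out of the reference, so this value is a description too.

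Because *CNMaR* was itself one of the rule genes, it was read again in barcodes chosen without it, by at least 3 of the other 5 genes with *Drgx* among them, a choice made after the values above were seen. This rule gave 246, 141 and 159 barcodes in the control and 131, 233 and 90 in the Appl-deleted libraries. A *CNMaR* UMI was present in 68.3%, 73.8% and 78.0% of them in control and in 38.9%, 42.5% and 43.3% in Appl-deleted libraries. The lowest control library was well above the highest Appl-deleted one, and the means were 73.3% ± 4.86 and 41.6% ± 2.34 (SD, n = 3, exact two-sided permutation p = 0.1, the smallest possible). Other neurons, here also chosen without *CNMaR*, had a *CNMaR* UMI in 5.87% to 9.96% of barcodes, so neither level was at the background. The UMIs behind these values were 652, 629 and 592 in control and 104, 192 and 74 in Appl-deleted libraries, or 662, 1184 and 1420 against 237, 277 and 389 plain CPM. The log2 change was -1.86 (SE 0.259, edgeR adjusted p = 0.00377), and its difference from the change in those other neurons was -1.56 (SE 0.228, edgeR adjusted p = 0.00766). The change lost its call without Appl-deleted replicate 2 (-1.81, adjusted p = 0.0973), while with each other library left out it kept it at log2 values between -2.13 and -1.66. The difference from other neurons passed with each library left out in turn, between -1.83 and -1.35.

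**Figure D4:**
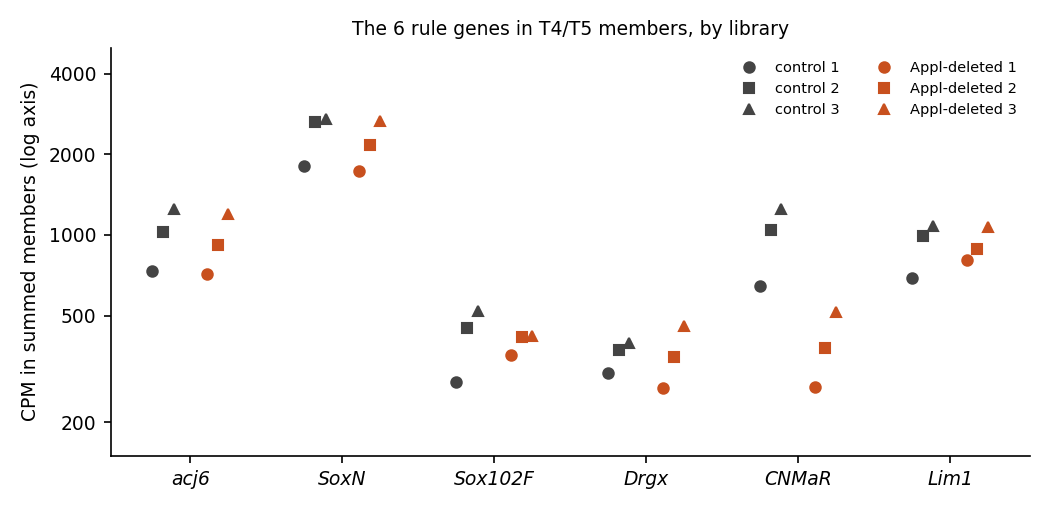
Level in CPM (logarithmic y axis, T4/T5 fit) of the 6 rule genes in the T4/T5 sum of each library, grey for control and orange for Appl-deleted, with the shape giving the replicate. *CNMaR* has 648 to 1252 CPM in control and 270 to 516 CPM in Appl-deleted libraries, and the other 5 genes have log2 changes between -0.13 and 0.00.

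Of the transmitter receptors and ion channels on the lists fixed for these neurons, 2 were higher. *5-HT1B* (FBgn0263116, chromosome 2R) encodes a serotonin receptor and gave 1 UMI over the control T4/T5 sums and 299 UMIs over the Appl-deleted sums. Its levels were 0.608, 0 and 0 CPM in control and 143, 105 and 65.3 CPM in Appl-deleted libraries. The ratio of the summed levels was 380 with an exact counting interval of 67.7 to 15059 (edgeR adjusted p = 1.51e-05), and in other neurons the fitted log2 change was 9.30. *Ca-alpha1D*, the pore-forming subunit of an L-type calcium channel, was at 267, 333 and 289 CPM in control and 504, 604 and 511 CPM in Appl-deleted libraries. Its log2 change was 0.87 (SE 0.150, adjusted p = 0.0156), beside 0.91 in other neurons. It lost its call without control replicate 3 (adjusted p = 0.0874) and without Appl-deleted replicate 2 (adjusted p = 0.133).

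Among surface proteins, *dpr21*, a member of the Dpr family of immunoglobulin-domain recognition proteins, was at 45.6, 79.5 and 66.5 CPM in control and 192, 190 and 159 CPM in Appl-deleted libraries. This was a log2 change of 1.54 (SE 0.206, adjusted p = 0.00221), beside 1.43 in other neurons. *fipi* (FBgn0031627, chromosome 2L), an immunoglobulin-domain protein known for its part in the timing of courtship song, was at 9.11, 5.76 and 8.78 CPM in control and 53.4, 60.8 and 51.1 CPM in Appl-deleted libraries. It rose by 2.77 on the log2 scale (SE 0.264, adjusted p = 2.26e-04), beside 2.06 in other neurons. *ptc*, the Hedgehog receptor gene, had 3 UMIs over the control and 102 over the Appl-deleted sums, or 1.82, 0 and 0 against 29.1, 44.6 and 48.2 CPM. Its ratio was 43.2 with a counting interval of 14.4 to 213. All 3 kept their call under each alternative they could be fitted in.

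Of the nuclear factors that rose, *dati*, a zinc finger transcription factor gene, had 183, 203 and 182 CPM in control and 361, 336 and 324 CPM in Appl-deleted libraries. It rose by 0.85 on the log2 scale (SE 0.139, adjusted p = 0.00981), beside 0.73 in other neurons. Its call was lost in 10 of 25 alternatives. The adjusted p was 0.0707 without control replicate 3, 0.0731 without Appl-deleted replicate 2 and 0.579 with at least 5 rule genes, where the log2 change was 0.71. *insv*, a transcriptional corepressor gene, had 3.65, 3.46 and 0 CPM in control and 17.5, 18.6 and 28.4 CPM in Appl-deleted libraries, a log2 change of 2.85. *dap*, a gene for an inhibitor of cyclin-dependent kinases, had 6.08, 6.91 and 1.255 CPM against 20.4, 26.8 and 48.2 CPM, a log2 change of 2.47. Without single libraries the adjusted p of *insv* reached 0.08 (control replicate 2), 0.0642, 0.146 and 0.0843 (Appl-deleted replicates 1, 2 and 3). That of *dap* reached 0.0731 and 0.0707 (control replicates 2 and 3) and 0.146 and 0.0774 (Appl-deleted replicates 2 and 3).

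Some transcripts were counted in 1 genotype alone. *CG30428* had 0 UMIs in control T4/T5 and 364 in Appl-deleted T4/T5, with 135, 150 and 114 CPM, at least 154-fold higher when the control is set to 3 UMIs over the group. *CG32581* had 0 against 174 UMIs, with 66.0, 62.4 and 82.3 CPM, at least 73.7-fold higher on the same floor. In the other direction *CG6912* had 301 UMIs against 0, at 104, 81.8 and 74.0 CPM in control libraries, at least 78.9-fold lower. *asRNA:CR45600* had 298 against 0 UMIs, at least 78.2-fold lower, and *asRNA:CR44429* had 915 against 3 UMIs, a ratio of 240 with a counting interval of 81.9 to 1166. Strand use in counting was not given in the sources used here, so reads of antisense RNAs and of their partner genes cannot be told apart. The other large rises were *PPO2*, *lncRNA:CR43241* (log2 change 3.17, adjusted p 0.0734 without Appl-deleted replicate 2) and *CG12768* (6.08, 6.91 and 2.51 CPM against 59.2, 41.3 and 25.5 CPM, log2 change 3.02).

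Of the genes that fell, *uex*, a magnesium transporter gene linked to memory on chromosome 2R, was at 845, 970 and 1026 CPM in control and 391, 448 and 406 CPM in Appl-deleted libraries. It fell by 1.19 on the log2 scale (SE 0.141, adjusted p = 0.00115), beside -0.95 in other neurons, and it kept its call under each alternative fitted. *gce*, which encodes a juvenile hormone receptor, was at 636, 738 and 794 CPM in control and 245, 265 and 315 CPM in Appl-deleted libraries (log2 change -1.40, SE 0.156, adjusted p = 6.82e-04). *Glut1*, a glucose transporter gene, was at 755, 939 and 826 CPM against 342, 508 and 434 CPM (log2 change -0.97, SE 0.170, adjusted p = 0.0166). In other neurons the log2 changes were -1.09 for *gce* and -1.01 for *Glut1*. The call of *gce* held in all alternatives, while that of *Glut1* was lost without control replicates 2 and 3 (adjusted p 0.0731 and 0.069), without Appl-deleted replicates 1 and 3 (0.0557 and 0.0741), with a 5% mitochondrial limit (0.132), after thinning (0.0834) and with *CNMaR* left out of the rule (0.0695). *gce* and *Glut1* were chosen for naming after their values were seen, as was *lncRNA:Hsromega*, the nuclear heat shock RNA, which rose from 8775, 10359 and 8411 CPM to 13756, 17293 and 15549 CPM (log2 change 0.76, SE 0.146, adjusted p = 0.0260). In other neurons its log2 change was 0.28 (adjusted p = 0.484). Its T4/T5 call was lost without control replicate 3 (adjusted p = 0.165) and without Appl-deleted replicates 2 and 3 (0.205 and 0.1).

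Other falls were very unequal among the control libraries. *Yp3*, a yolk protein gene of the fat body, was at 2470, 34.6 and 115.4 CPM in control T4/T5 sums and 3.88, 3.24 and 0 CPM in Appl-deleted sums (log2 change -8.13, SE 1.71, adjusted p = 0.0405). Control replicate 1 was far above the rest. *Arc1*, a gene for a capsid-forming protein that carries RNA between cells, was at 146, 38.0 and 13.8 CPM against 1.94, 1.62 and 2.84 CPM (log2 change -5.12, SE 0.994, adjusted p = 0.0281). *Dro*, an antimicrobial peptide gene, was at 44.4, 12.7 and 11.3 CPM against 0.970, 1.62 and 0 CPM. In other neurons the log2 change of *Arc1* was -6.17 and passed (adjusted p = 0.00445), while that of *Yp3* was -8.42 and did not (adjusted p = 0.055). Each lost its call without any 1 of the Appl-deleted libraries, at adjusted p of 0.137, 0.282 and 0.16 for *Yp3*, 0.104, 0.236 and 0.0885 for *Arc1*, and 0.108, 0.185 and 0.0835 for *Dro*. The remaining large falls by fold were *CG9377* (-4.13, adjusted p 0.0641 without Appl-deleted replicate 2), *asRNA:CR45009* (-3.99) and *CG31549* (-2.97, adjusted p 0.0731 without Appl-deleted replicate 2).

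With at least 5 rule genes, the genes named above that were called there had log2 changes of -2.87 for *Appl*, 0.63 for *Ca-alpha1D*, 1.47 for *dpr21* and 3.68 for *fipi*. Those of *insv*, *dap*, *uex*, *gce*, *Glut1*, *lncRNA:Hsromega* and *Yp3* were 3.14, 3.29, -1.29, -1.82, -0.64, 0.94 and -9.12. Also called there were *ptc*, *CG30428*, *CG32581*, *CG12768*, *lncRNA:CR43241*, *CG6912*, *asRNA:CR45600*, *asRNA:CR44429* and *asRNA:CR45009*. All of these kept the direction they had over all T4/T5 barcodes. *5-HT1B*, *Arc1*, *Dro* and *PPO2* were read too rarely there for the genotype test. Their changes thus rest on the wider set, and the part of barcodes with 3 or 4 rule genes in them was not tested.

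Markers of other cells in the T4/T5 sums were therefore counted beside these results. Over the full fat body list the summed level was 158 to 4675 CPM in control and 57.7 to 143 CPM in Appl-deleted libraries, and of its 6 tested genes 1 was lower, *Yp3*. DESeq2 called 2 of them lower, and with the replicate block 4 were lower, *Yp1* (log2 change -7.68), *Yp2* (-6.41), *Yp3* and *Tsf1* (-2.13). The hemocyte list summed to 20.7 to 326 CPM in control and 0 to 9.52 CPM in Appl-deleted libraries, with no member high enough to be tested. The glial list summed to 377 to 836 CPM against 162 to 461 CPM, and *repo* had a UMI in 0.948%, 0% and 0.355% of control and 0.844%, 0% and 0% of Appl-deleted T4/T5 barcodes. The photoreceptor list summed to 1286 to 1593 CPM against 1167 to 1373 CPM, and the GABA and glutamate markers to 472 to 714 CPM against 371 to 723 CPM. With the block the glial gene *Gs2* (-1.37) and the opsin gene *ninaE* (-1.81) were also lower. In each control library the fat body and hemocyte sums were above those of every Appl-deleted library, with control replicate 1 far the highest. The control fat body sums were 4675, 158 and 318 CPM, and the hemocyte sums 326, 22.3 and 20.7 CPM. *PPO2*, a blood cell gene outside these lists, went the other way, with a log2 change of 3.53. The part of such RNA, or of the mix of male and female cells, in the calls above was not tested.

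Across the fixed lists of genes that suit these neurons, most members did not pass the test. The median log2 change of all 5528 genes was -0.013. Of 28 tested transcription factors of optic lobe identity outside the rule, 1 was higher (*dati*), with a median of 0.24. Of 15 amine receptors 1 was higher (*5-HT1B*, median 0.05), of 15 neuropeptide receptors the 1 counted as lower was the rule gene *CNMaR* (median 0.42) and of 24 voltage-gated channels 1 was higher (*Ca-alpha1D*, median -0.05). Of 31 Dpr and DIP proteins 1 was higher (*dpr21*, median 0.11), and of 44 other adhesion and guidance proteins 1 was higher (*fipi*, median 0.02). Of 13 genes for Appl, its secretases and partners only *Appl* itself was called (median 0.03). Of 10 genes of cAMP and memory 1 was lower (*uex*, median 0.07), and of 8 activity-regulated genes 1 was lower (*Arc1*, median 0.13). These counts of 0 or 1 are close to what 1.43% of each list would give.

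In several lists edgeR called none. These were 8 neuron markers (median 0.01, 1 gene with unadjusted p under 0.05), 4 cholinergic genes (median 0.03, 1 gene), 7 genes of other transmitters (median 0.12, 2 genes), 11 acetylcholine receptors (median 0.06, 2 genes) and 16 receptors for GABA, glutamate and histamine (median 0.12, 3 genes). The 26 genes of synaptic release (median -0.02, 1 gene), 21 Beat and Side proteins (median 0.11, 1 gene), 15 genes of TGFβ and BMP signaling (median 0.09, 0 genes) and 23 autophagy genes (median -0.06, 1 gene) likewise had none. DESeq2 also called none in these 9 lists. The replicate block, with 4% of all tested genes called, called *Syn* (log2 change -0.39), which stands among both the neuron markers and the release genes, *nAChRalpha7* (0.41), *KaiR1D* (0.85) and *beat-Ic* (-0.58). The cholinergic, TGFβ and BMP, and autophagy genes showed no change that passed in any of the 3 fits.

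The 16 tested heat shock genes were the list in which the replicate block changed the most calls. Their median log2 change was 0.40 and none was called by edgeR or DESeq2 without the block (2 with unadjusted p under 0.05). With the block 5 were higher, *Hsp68* (log2 change 1.20), *Hsp70Bb* (1.22), *Hsp26* (0.80), *Hsp23* (0.79) and *Hsp27* (0.75), all chaperones induced by heat and other stress, beside 2.19% of all genes tested that were higher with the block. In the stricter set and without the block, 0 of 12 tested heat shock genes were called, with a median of 0.17. The summed level of the list overlapped between the genotypes, at 3640 to 8593 CPM in control and 4848 to 10766 CPM in Appl-deleted libraries. The block also added *Dop2R* (0.56), *DIP-kappa* (1.13) and the immediate early gene *kay* (0.84) among the higher, and the SIFamide receptor gene *SIFaR* (-1.45) and *dpr8* (-0.46) among the lower.

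The next comparison asked whether the genotype change in T4/T5 differed from that in other neurons of the same libraries. Of 7820 genes tested, 3 (0.0384%) differed by edgeR's test of the genotype by class term, and 463 (5.92%) had an unadjusted p under 0.05. Other neurons, which are summed over many more barcodes, had 362 of 8163 genes called between the genotypes (4.43%), in the same libraries. The 3 genes were *PPO2*, *lncRNA:CR44832* and *jdp*, and each lost its call under some change of library or rule.

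*PPO2*, a prophenoloxidase gene of the crystal cells of the blood, was at 3.61, 1.15 and 1.24 CPM in control T4/T5 and 34.5, 24.1 and 25.4 CPM in Appl-deleted T4/T5, on the scale of this fit. In other neurons it was at 108, 4.24 and 5.83 CPM in control and 40.6, 37.1 and 36.1 CPM in Appl-deleted libraries. Control replicate 1 was thus the highest library in other neurons and not in T4/T5. The difference of changes was 4.05 (SE 0.458, edgeR adjusted p = 0.00244), and without control replicate 1 it was 1.62 (adjusted p = 0.674). With at least 5 rule genes its adjusted p was 0.951.

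*jdp*, a bZIP transcription factor gene, was at 961, 613 and 794 CPM in control T4/T5 and 1172, 1302 and 1386 CPM in Appl-deleted T4/T5, and in other neurons at 1966, 1468 and 1425 CPM against 1442, 1671 and 1467 CPM. The difference of changes was 0.79 (SE 0.108, adjusted p = 0.00833), and the T4/T5 change alone did not pass (log2 0.70, adjusted p = 0.0853). In the barcodes with at least 5 rule genes *jdp* was at 605, 174 and 131 plain CPM in control and 256, 214 and 378 plain CPM in Appl-deleted libraries, where the difference of changes was 0.02 (adjusted p = 1). Much of the *jdp* signal therefore lay in the barcodes with 3 or 4 rule genes. *lncRNA:CR44832* had 184, 3 and 24 UMIs in control T4/T5 and 646, 1389 and 0 UMIs in Appl-deleted T4/T5, a difference of 5.41 (SE 0.640, adjusted p = 0.00244) in which the genotypes overlapped, and with at least 5 rule genes it was 0.51 (adjusted p = 0.999).

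With at least 5 rule genes, 7 of 7863 genes (0.089%) differed from other neurons in their genotype change. *CNMaR* was 1 of them and is not read there, since it chose the barcodes. *bma*, named because it passed here, was at 161, 187 and 154 plain CPM in control and 46.8, 63.7 and 82.0 plain CPM in Appl-deleted T4/T5, while other neurons had 166 to 181 against 174 to 193 plain CPM. Its difference was -1.55 (adjusted p = 0.00104), with no overlap of the T4/T5 libraries. *gce* was at 760, 936 and 933 plain CPM in control and 205, 242 and 309 plain CPM in Appl-deleted T4/T5, and its fall exceeded that of other neurons by a log2 of -0.78 (adjusted p = 0.0197). *CG8861* was at 540, 564 and 483 plain CPM against 295, 245 and 378 plain CPM, with other neurons between 310 and 350 plain CPM in all libraries (difference -0.88, adjusted p = 0.0197). *lncRNA:Hsromega* differed by 0.59 (adjusted p = 0.0374) and *CG1648* by 1.80 (adjusted p = 0.00383). *CG14687* (-4.37, adjusted p = 0.00198) rested on control replicate 1, with 63 UMIs there and 0 to 3 in each other T4/T5 sum. These genes did not pass in the wider set, so they depend on how strictly T4/T5 barcodes are chosen. That stricter choice also counted *CNMaR* UMIs, which were present in a lower share of Appl-deleted than of control barcodes.

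**Figure D5:**
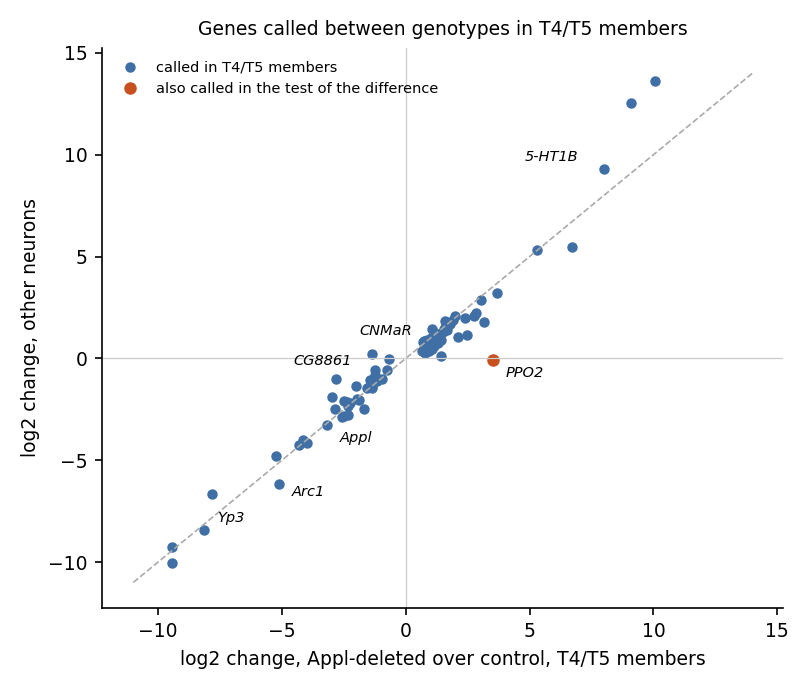
Log2 change between the genotypes of the 79 genes called in T4/T5, in T4/T5 (x axis) and in other neurons of the same libraries (y axis), with a dashed line of equal change. Both axes come from the same 6 libraries, so nearness to the line is no independent repeat. *PPO2*, in orange, at 3.53 and -0.07, is the called gene that also passed in the test of the difference.

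The last comparison split T4/T5 by a *TfAP-2* UMI within each library, with the library as a term. A barcode without a *TfAP-2* UMI can still be a T4 cell, which makes folds understate a split by cell. A *TfAP-2* UMI was also rarer in barcodes with 3 rule genes (16.3%, pooled) than with 5 or 6 (22.6% and 26.0%). The groups with and without it thus also differed in the rule genes held, which can raise folds. *acj6* and *SoxN* were higher with it by log2 0.27 and 0.31 (neither called), against -0.05 and 0.02 with at least 5 rule genes. Folds are therefore no bound on a split by cell. In 5 of 6 libraries the barcodes with a *TfAP-2* UMI also had the higher median depth (4072, 3106, 2217, 2428, 2891 and 2003.5 UMIs against 3416.5, 2834.5, 2082, 3083.5, 2221 and 1909 UMIs). Besides *TfAP-2*, 22 of 3461 genes tested were called (0.636%).

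*dpr1*, of the Dpr recognition family, was higher with *TfAP-2* in 6 of 6 libraries. It was at 982, 1173 and 1369 CPM in control and 1003, 784 and 1005 CPM in Appl-deleted libraries with the UMI, and at 583, 683 and 756 CPM and 566, 620 and 563 CPM without. The lowest value with *TfAP-2* was above the highest without. The log2 difference was 0.73 (SE 0.0799, edgeR adjusted p = 9.72e-05), and it kept its call with each library left out. With at least 5 rule genes it was 0.42 (adjusted p = 0.134). The other genes highest with *TfAP-2* by fold were *sosie* (1.49, adjusted p = 0.0268), *CG8916* (1.00, adjusted p = 0.0227), *CG13579* (0.72) and *Pdfr*, the receptor of the clock peptide PDF (0.64, adjusted p = 0.0498). Each of these lost its call without control replicate 2 (adjusted p 0.101, 0.0534, 0.101 and 0.158 in the same order) and without Appl-deleted replicate 1 (0.0922, 0.0871, 0.121 and 0.128). Without control replicate 3 the adjusted p was 0.0662 for *sosie*, 0.0838 for *CG8916* and 0.145 for *Pdfr*. Without Appl-deleted replicate 2 it was 0.142 for *sosie*, 0.12 for *CG13579* and 0.18 for *Pdfr*, and without Appl-deleted replicate 3 it was 0.0613 for *Pdfr*.

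*kn*, the gene of the transcription factor Collier, was lower with *TfAP-2*. It was at 5.79, 0 and 0 CPM in control and 0 CPM in the 3 Appl-deleted libraries with the UMI, and at 39.7, 44.0 and 112 CPM and 99.4, 51.3 and 88.9 CPM without (log2 -5.08, adjusted p = 4.89e-05). *oc*, the homeodomain factor Orthodenticle, was lower by a log2 of -2.24 (adjusted p = 0.0135, and 0.0802 without Appl-deleted replicate 2), and *toy*, a Pax6 factor, by -1.10. The Wnt5 receptor genes *Drl-2* and *drl* were lower by -1.13 and -1.12. The calls of *toy*, *Drl-2* and *drl* were lost without control replicate 2 (adjusted p 0.101, 0.12 and 0.101), control replicate 3 (0.0636, 0.13 and 0.112), Appl-deleted replicate 1 (0.101, 0.131 and 0.128) and Appl-deleted replicate 2 (0.12, 0.0646 and 0.142), while *kn* kept its call without each library. None of *kn*, *oc*, *toy*, *Drl-2*, *drl* and *sosie* was read deeply enough to be tested in the barcodes with at least 5 rule genes, where *kn* had 9, 2 and 0 UMIs in the control and 0 UMIs in the Appl-deleted sums. Over all T4/T5 barcodes *kn* averaged 54.7 plain CPM and *oc* 63.4, and in the stricter set 2.76 and 14.9. *kn* and *oc* thus came mostly from barcodes with 3 or 4 rule genes. For *toy*, *Drl-2*, *drl* and *sosie* this was not tested, since low counts alone can keep a gene out of the fit.

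*GluRIB*, an ionotropic glutamate receptor subunit gene named after its values were seen, was called in both sets. It was at 301, 336 and 334 CPM in control and 338, 277 and 259 CPM in Appl-deleted libraries with a *TfAP-2* UMI, and at 481, 406 and 545 CPM and 595, 416 and 508 CPM without. It was lower with *TfAP-2* in 6 of 6 libraries by a log2 of -0.64 (edgeR adjusted p = 0.00442), and by -0.77 with at least 5 rule genes (adjusted p = 0.00253). It kept its call with each library left out, and lost it with at least 2 rule genes (adjusted p = 0.463) and with a 5% mitochondrial limit (adjusted p = 0.49). Besides *TfAP-2*, *pros* (-0.90, adjusted p = 0.0350), a homeodomain factor, and *CG15537* (1.09, adjusted p = 0.0265) were the other 2 genes called in the stricter set.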

How the data were processed

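Brains of 3 control and 3 Appl-deleted libraries were profiled with 10x Chromium 3′ chemistry. Per the file headers the deposited matrices hold UMI counts per feature and barcode, which the authors made with Cell Ranger 6.0.0 (6.0 in the submitters' processing notes). The genome build is not given in the sources used here. Of 22064 features, 16493 were genes, and the rest (transposable elements and others) were left out of the main fits. The deposited counts still hold barcodes of low quality and doublets, and the limits given at the start of the report kept 37.4% of all barcodes. The control libraries kept 4444 of 29008, 3383 of 6413 and 4096 of 6685 barcodes. The Appl-deleted libraries kept 3651 of 10109, 6461 of 10519 and 3154 of 4628. Control replicate 1 thus kept the smallest part. Doublets were not called, and alternatives without *Gad1*, *VGlut* or *repo* UMIs and without the 5% of deepest barcodes stand in for that.

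Counts were summed over T4/T5 barcodes and over other neurons in each library (Python 3.11.15, pandas 2.3.3, numpy 2.4.6, scipy 1.17.1) and tested across libraries with edgeR 4.0.16 in R 4.3.3 (limma 3.58.1; filterByExpr, TMM, quasi-likelihood test), with DESeq2 1.42.0 as an alternative. All adjusted p-values of single genes are Benjamini-Hochberg values from edgeR unless DESeq2 is named. The SE beside an edgeR log2 value was derived from its test, as the absolute log2 value divided by the square root of the F statistic. The fit of the difference between cell classes and that of the *TfAP-2* split had the library as a term. Single values per library were compared by exact permutation. CPM from the T4/T5 fit, the joint fit of both classes, the level comparison and plain CPM differ in scale and are named where used. Shares carry exact Clopper-Pearson intervals.

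Genes were named by rule: *Appl*, the rule genes, the 10 largest rises and falls among called genes with a mean of at least 10 CPM and no overlap, called members of the lists, genes called in the test of the difference, the 5 highest and lowest of the *TfAP-2* split and the genes most above other neurons. Genes named outside it are marked as such. The members, the gene lists and the tests were chosen with earlier results of these data known.

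The labels number the replicates in both genotypes. Same-numbered libraries deviated together from their genotype means in other neurons (r across genes of 0.335, 0.178 and 0.402 for replicates 1, 2 and 3) and in T4/T5 (0.310, 0.0301 and 0.143). Differently numbered libraries had r from -0.316 to 0.0587 in other neurons and from -0.251 to 0.133 in T4/T5. The T4/T5 pair of replicates 2 thus did not stand apart. Since every same-numbered other-neuron pair was above 0.1, the number was read as pairing the libraries. The labels do not state a pairing, and the main genotype fit did not use it. Scripts were tested on simulated counts with known log2 changes of 1 or 2. The genotype fit recovered 54% and 91% of these, and 4.61% of its calls were false. The fit of the difference between classes recovered 42% and 76%, and 12.6% of its calls were false. The *TfAP-2* split recovered 86% and 93%, with 5.79% false. Lists without a call can thus hold missed changes.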

Additional observations from a re-analysis of the deposited data

Results flagged for a closer look

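In 3 genes the genotype change in T4/T5 differed from that in other neurons of the same libraries, by edgeR's test of the genotype by class term. The difference was 4.053 on the log2 scale for *PPO2* (SE 0.458, adjusted p = 0.00244), with T4/T5 above control in 3 of 3 Appl-deleted libraries, and it did not pass without control replicate 1 (adjusted p = 0.674) or with at least 5 rule genes (0.951). It was 5.413 for *lncRNA:CR44832* (SE 0.640, adjusted p = 0.00244), whose T4/T5 libraries overlapped between the genotypes and included 1 Appl-deleted library with 0 UMIs. It was 0.792 for *jdp* (SE 0.108, adjusted p = 0.00833), which did not pass with at least 4 rule genes (adjusted p = 0.961).

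Features that are not genes were left out of the comparisons above. When all features were fitted together, 34 of 115 such features (29.6%) were called between the genotypes in T4/T5 by edgeR, 21 higher and 13 lower in Appl-deleted libraries. Of all 5643 features in that fit, 114 (2.02%) were called.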

How the results depend on the processing

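No named gene reversed its sign where it was called in the main or the alternative fit, while the uncalled rule genes changed sign around 0. Over the single-gene values 943 kept their side of the threshold, 144 lost a call and 11 gained one. Against 42 genes higher and 37 lower in Appl-deleted T4/T5, the counts were 80 and 60 with at least 2 rule genes, 17 and 16 with a 5% mitochondrial limit, 10 and 11 after thinning to 1000 UMIs, 142 and 227 without a filter on low counts and 19 and 19 with *CNMaR* left out of the rule. Higher genes numbered 27 with at least 4 rule genes, 68 with no mitochondrial limit and 64 with all features, and lower genes 24 without *Gad1*, *VGlut* or *repo* UMIs. Leaving out 1 library gave 15 to 72 higher and 18 to 53 lower. Against 3 genes in the test of the difference between classes there were 6 with at least 4 rule genes, 11 with at least 2, 7 with at least 5, 6 with *CNMaR* left out of the rule or of the rule and the reference, 9 with no mitochondrial limit, 1 with a 5% limit, 1 without the deepest 5% of barcodes, 12 with all features, 11 with DESeq2, 7 with upper-quartile scaling, 93 without a filter and 5 to 26 without 1 library. Against 22 genes in the *TfAP-2* split there were 5 with at least 4 rule genes, 45 with at least 2, 3 with at least 5, 14 with *CNMaR* left out, 45 with no mitochondrial limit, 3 with a 5% limit, 51 without *Gad1*, *VGlut* or *repo* UMIs, 129 without a filter and 5 to 44 without 1 library. Against 23 genes at least 2-fold above other neurons there were 39, 11 and 44 with at least 4, 2 and 5 rule genes and 37 and 36 with *CNMaR* left out of the rule and of both. The difference in median mitochondrial share, Appl-deleted minus control, was -0.6436 percentage points, ranged from -1.117 to 0.1907 without 1 library and turned positive without control replicate 1. Outside the changes in barcodes or genes that these settings make by construction, the cause was not tested.

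The replicate block raised the counts to 121 higher and 100 lower. With at least 5 rule genes the same block gave 47 and 42. At least 5 rule genes, the rule and the reference without *CNMaR* and their combinations with the block or a left-out library were chosen after seeing the data.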
